A study of Homo sapiens with 6 samples.

Results

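The response shared by 2 drugs, Nutlin-3 and 5-fluorouracil (5FU), was measured against control in HCT116, an established human colorectal carcinoma line whose samples are titled HCT116 +/+. RNA collected after 12 h of treatment was hybridized to Affymetrix Human Exon 1.0 ST arrays, on which a gene is read by many probe sets along its exons. Of the 6 arrays of the series, 2 were of cells given Nutlin-3 (titled Nutlin 3R), 2 of cells given 5FU and 2 of control cells, and all 6 entered the comparison. The controls are given as untreated in the labels and as DMSO in the design text, and no dose is stated in the labels. Nothing in the labels shows the replicates of a group to be separate cultures, so each p-value reflects the spread between these arrays alone, and that spread could be technical. The 4 drug arrays were set against the 2 controls with each drug weighted equally. A gene belonged to the common response if the pooled difference passed an adjusted p of 0.05 (limma, Benjamini-Hochberg over 17841 genes) and all 4 drug arrays lay on one side of both controls. Of the 17841 genes, 130 did so, with 88 higher and 42 lower after the drugs.

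Nutlin-3 blocks the pocket through which the ubiquitin ligase MDM2 holds the transcription factor p53, and so stabilizes p53 without breaking DNA. 5FU blocks thymidylate synthase and is built into RNA and DNA, and the resulting damage signals also stabilize p53. Stabilized p53 activates genes of arrest, cell death, repair and its own feedback. Its target CDKN1A (p21) inhibits cyclin-dependent kinases, and repressor complexes of the DREAM type then hold down cell-cycle genes, many of which carry the sequence TTTGAA, known as the CHR, near their start site together with CCAAT boxes.

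The promoter letters of falling genes are shown first because they carry letters that many of these genes share. The sequences are the 250 bases before the start site, 5′ to 3′, from RefSeq (GRCh38.p14), in lower case. Capitals mark TTTGAA, the CCAAT box and the TATAAA element, or the reverse complement of each. H2AC21, BUB1B and H2BC15 were the falls of the largest size with a TTTGAA match, whereas PLK1, CDC20, KIF4A and H2BC14 were added after their values were seen. H2AC21 is at chr1:149887966-149888215 on the minus strand, BUB1B at chr15:40160819-40161068 on the plus strand and H2BC15 at chr6:27838319-27838568 on the plus strand. PLK1 is at chr16:23678639-23678888, CDC20 at chr1:43358731-43358980, KIF4A at chrX:70289854-70290103 and H2BC14 at chr6:27814772-27815021, each on the plus strand.
PLK1: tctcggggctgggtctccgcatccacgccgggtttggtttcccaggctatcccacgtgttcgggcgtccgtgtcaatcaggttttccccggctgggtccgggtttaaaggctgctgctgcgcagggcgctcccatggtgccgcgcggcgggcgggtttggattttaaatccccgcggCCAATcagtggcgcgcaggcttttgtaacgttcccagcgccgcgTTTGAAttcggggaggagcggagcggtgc
KIF4A: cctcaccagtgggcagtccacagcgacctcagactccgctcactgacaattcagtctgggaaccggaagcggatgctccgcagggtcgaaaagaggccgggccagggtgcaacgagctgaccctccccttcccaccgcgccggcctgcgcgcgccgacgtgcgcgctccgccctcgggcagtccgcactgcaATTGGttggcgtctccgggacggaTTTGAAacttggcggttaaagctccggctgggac
CDC20: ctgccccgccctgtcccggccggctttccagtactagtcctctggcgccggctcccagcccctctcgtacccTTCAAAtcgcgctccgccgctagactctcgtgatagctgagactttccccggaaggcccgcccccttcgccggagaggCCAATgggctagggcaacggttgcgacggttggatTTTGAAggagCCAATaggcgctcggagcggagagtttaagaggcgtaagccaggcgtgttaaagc
BUB1B: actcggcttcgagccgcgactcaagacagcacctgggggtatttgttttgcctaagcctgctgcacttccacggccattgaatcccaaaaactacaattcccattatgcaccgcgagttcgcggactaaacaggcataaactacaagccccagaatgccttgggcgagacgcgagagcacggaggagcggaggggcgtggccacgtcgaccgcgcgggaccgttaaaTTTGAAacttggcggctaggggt
H2AC21: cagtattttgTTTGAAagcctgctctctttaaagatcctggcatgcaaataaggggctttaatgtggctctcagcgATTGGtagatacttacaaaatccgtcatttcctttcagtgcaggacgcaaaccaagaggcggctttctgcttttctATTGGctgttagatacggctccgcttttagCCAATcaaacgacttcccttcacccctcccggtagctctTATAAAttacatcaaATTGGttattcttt
H2BC15: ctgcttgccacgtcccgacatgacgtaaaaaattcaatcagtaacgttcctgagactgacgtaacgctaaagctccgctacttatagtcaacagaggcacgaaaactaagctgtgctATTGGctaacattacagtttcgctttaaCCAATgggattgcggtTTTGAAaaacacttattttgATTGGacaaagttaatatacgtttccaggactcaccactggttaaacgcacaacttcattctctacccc
H2BC14: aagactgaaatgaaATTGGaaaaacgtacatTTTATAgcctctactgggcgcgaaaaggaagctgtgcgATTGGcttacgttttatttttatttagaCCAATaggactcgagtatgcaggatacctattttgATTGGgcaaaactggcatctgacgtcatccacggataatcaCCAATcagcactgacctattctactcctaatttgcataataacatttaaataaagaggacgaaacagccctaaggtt
In PLK1, CCAAT began at -73 and TTTGAA at -29 relative to the start. In KIF4A, the pair stood at -58 and -34. CDC20 held TTTGAA at -178 and -65 and CCAAT at -100 and -55. BUB1B held TTTGAA at -23 and no CCAAT in this stretch. The histone H2AC21 held 4 CCAAT boxes, with TATAAA at -29 and TTTGAA far upstream, at -240. H2BC14 held 5 CCAAT boxes and no TTTGAA.

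Over the window of 250 bases before to 50 after the start, searched on both strands, 39 of the 42 falling genes had a RefSeq entry, as did 72 of the 88 rising genes and 13866 of all genes tested. Among the 27 falling genes with an entry that were not histones, TTTGAA was found in 16 (59.3%), against 10.9% of all promoters and 8.33% of those of rising genes. A match within 50 bases of the start was found in 10 of the 27 (37.0%), against 2.94% of all. CCAAT was found in 22 of the 27 (81.5%), against 36.1% of all, and both letters together in 15 (55.6%), against 4.50% of all. The 12 histone promoters had another makeup, in that CCAAT was in 12 of 12 (100%), TATAAA in 9 (75%, against 7.90% of all) and TTTGAA in 3 (25%). TATAAA was in 0 of the 27 other falling genes. Of the E2F-type letters TTTGGCGC or TTTCCCGC, 3 of 27 (11.1%) held a match, against 3.22% of all. These shares are descriptions of letters in a window, not of bound sites.

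The rising genes were searched for p53 binding letters. The p53 half-site, searched by its consensus in the same window, was in 8 of 72 (11.1%), against 5.83% of all promoters and 2.56% of those of falling genes. None of the 10 promoters with an entry among the 12 largest rises held one in this window, and sites farther from the start were not searched. ABCA12, a lipid transporter of epithelial cells chosen after its values were seen, is shown as a rising gene with a match, which stands in capitals and begins at -82 (chr2:215138627-215138876, minus strand, GRCh38.p14).
ABCA12: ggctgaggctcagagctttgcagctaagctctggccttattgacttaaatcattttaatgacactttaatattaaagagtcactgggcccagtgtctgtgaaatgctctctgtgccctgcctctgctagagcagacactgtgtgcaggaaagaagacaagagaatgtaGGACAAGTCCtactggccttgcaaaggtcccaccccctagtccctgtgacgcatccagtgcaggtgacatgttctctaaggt

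Across the series, array medians lay between 4.73 and 4.78 log2 units, and correlations between arrays across genes between 0.92 and 0.981. A gene's value was the mean of its probe sets, with a median of 12 probe sets a gene and a median residual SD of 0.161 log2 units. The labelled colon line was checked against marker genes. The 15 colonic epithelial markers checked had a median of 7.78 log2 units. KRT8 (11.2), KRT18 (11.02), KRT19 (9.66) and EPCAM (9.39) were the highest, and the differentiation markers KRT20 (5.69) and VIL1 (5.78) the lowest. CEACAM5 (6.16), GPA33 (6.76), ELF3 (6.81) and CLDN3 (7.35) also lay within the range of the fibroblast markers. Every gene tested exceeds the filter of 4.73 log2 units by construction, so these levels alone do not identify the line. The 8 collagen, stromal and surface markers of fibroblasts checked had means between 5.59 and 7.40, and the 8 blood cell markers checked between 5.48 and 6.88. None of these genes was in the common response, but ACTA2, which stands in a wider list of 13 fibroblast markers, was. These arrays measure RNA in bulk, so fewer cells of a type (cells in mitosis, for example) and less RNA per cell cannot be told apart.

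After both drugs, 48 of 153 measured p53 target genes were higher, and 16 of 79 measured genes of mitosis and 12 of 18 measured histone genes were lower. These lists were chosen with earlier results of these data known, so the counts are descriptions and not support. DNAI3, GALNT5 and HSD17B7, counted among the 48, were placed in the lists because those results showed them. The pooled difference passed the test in 134 genes (0.751% of those tested), of which 130 (0.729%) met the common rule, 88 higher (0.493%) and 42 lower (0.235%). Without a test, 7.78% of all genes had all 4 drug arrays above both controls and 7.02% had them below. The 4 genes that passed the test but had overlapping arrays were TICRR, MCM10, HJURP and CDC6, of DNA replication and centromere assembly, and all were lower. CDC6, which loads the replicative helicase, had means of 9.85 ± 0.21 (SD, n = 2) in the controls, 7.60 ± 0.20 after Nutlin-3 and 10.02 ± 0.22 after 5FU. Its pooled fall thus came from the Nutlin-3 arrays, and the 5FU arrays overlapped the controls. The size of the common response rested on each array. Counts fell to 7 genes without control replicate 1 and 7 without control replicate 2, to 53 and 64 without Nutlin-3 replicates 1 and 2, and to 20 and 25 without 5FU replicates 1 and 2. CDKN1A, GDF15, TP53I3, H2AC21 and H2BC14 were the 5 genes called in each of these 6 reduced fits. With each array centred on its median, the common response was 132 higher and 98 lower (57.4% higher, against 67.7%).

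Rising genes changed by a median of 1.06 log2 units, from 0.72 to 2.53, against a median near zero (0.00) over all genes. Their median was 1.04 after Nutlin-3 and 1.15 after 5FU. Falling genes changed by a median of -1.19, from -0.73 to -3.47, with -1.57 after Nutlin-3 and -0.99 after 5FU. In 56 of the 130 genes the change was at least 2-fold with each of the 2 drugs, 39 higher and 17 lower. The rising genes held 48 members of the p53 target lists and 0 of the cell-cycle, replication and histone lists, and the falling genes held 30 of the latter and 0 of the former. Since the lists were chosen with earlier results of these data known, this split is a description and not support. ABCA12 and DNAI3, counted among the 48, passed the level filter through the drug arrays.

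**Figure D1:**
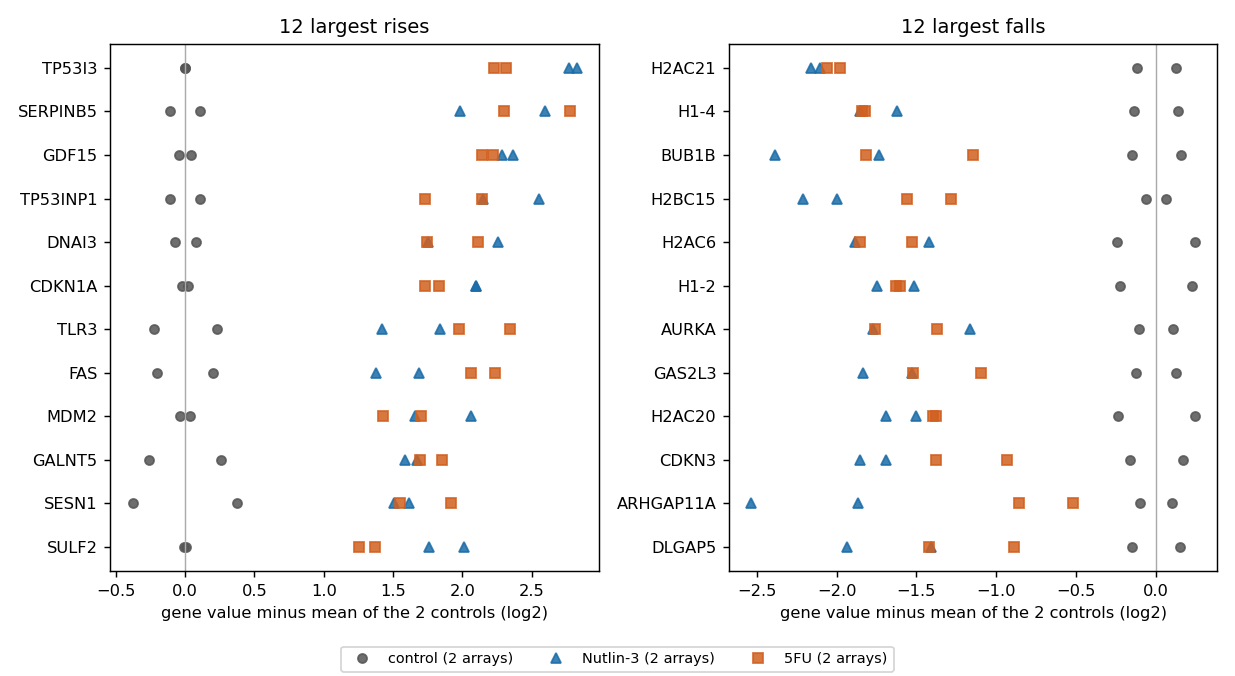
Gene value on each array minus the mean of the 2 controls (x axis, log2) for the 12 largest rises and the 12 largest falls with at least 3 probe sets. Circles are controls, triangles Nutlin-3 and squares 5FU, 2 arrays each, and in every gene shown the 4 drug arrays stand clear of both controls, with TP53I3 (2.53) and H2AC21 (-2.08) at the top.

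Of the 17 measured p53 targets of cell-cycle arrest, 9 rose in the common response and 0 fell, and the list's median change was 0.96 (1.00 after Nutlin-3, 1.09 after 5FU). CDKN1A was at 8.32 and 8.27 in the controls, 10.39 and 10.39 after Nutlin-3, and 10.12 and 10.03 after 5FU. The 4 drug arrays were thus well clear of the controls. The 2 drugs did not overlap each other, though the direct limma test of Nutlin-3 against 5FU was not passed (adjusted p = 0.351). The pooled difference was 1.94 ± 0.11 (SE), or 3.83-fold, with an adjusted p of 0.00196. BTG2, an antiproliferative cofactor, rose 2.99-fold, SFN, the 14-3-3 protein that holds CDK1 out of the nucleus, 2.87-fold, and GADD45A, a stress protein that binds CDK1 and PCNA, 2.48-fold (these 3 were picked after their values were seen). SFN was at 9.90 and 9.70 in the controls, 11.14 and 11.07 after Nutlin-3, and 11.59 and 11.49 after 5FU. Its 5FU arrays were the highest, though the direct limma test between drugs was not passed (adjusted p = 0.25). GDF15, a stress cytokine of the TGF-beta family that was placed in this list, was at 8.76 and 8.67 in the controls, 11.04 ± 0.05 (SD, n = 2) after Nutlin-3, and 10.85 and 10.94 after 5FU. All of its 8 probe sets had every drug array above both controls, and the rise was 2.25 ± 0.11 (4.76-fold, adjusted p = 0.00106). SESN1 and SESN2, sestrins that restrain mTORC1 under stress, rose 3.13-fold and 1.85-fold, and the controls of SESN1 stood apart from each other (7.19 and 6.44).

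Of 24 measured p53 targets of cell death, 5 rose, and the median was 0.52. FAS, the death receptor of the extrinsic pathway, was at 6.92 and 6.52 in the controls, 8.09 and 8.40 after Nutlin-3 and 8.78 and 8.95 after 5FU. Both 5FU arrays were above both Nutlin-3 arrays, which were above both controls. The direct limma test between drugs was not passed (adjusted p = 0.236), and the pooled rise was 1.84 ± 0.16 (3.58-fold, adjusted p = 0.0131). APAF1, the scaffold of the apoptosome, was at 6.79 and 6.61, then 7.55 and 8.06, then 8.24 and 8.55 in the same order of groups, a 2.64-fold rise. TNFRSF10B, a receptor for the ligand TRAIL, rose 2.01-fold, with 19 of 20 probe sets above both controls on every drug array. TNFRSF10D, a decoy receptor of that ligand, rose 1.81-fold and TNFRSF10C, another decoy, 1.70-fold. These 3 receptor genes neighbour one another, and FAS neighbours ACTA2, smooth muscle actin, which rose 2.84-fold. Whether neighbours share signal was not tested. ACTA2 was the 1 of 13 measured fibroblast markers in the common response, and that list's median change was -0.02.

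Of 15 measured regulators that feed back on p53, 4 rose, with a median of 0.40 (0.61 without control replicate 1, and 0.21 over all probe sets of a gene). MDM2 was at 8.64 and 8.57 in the controls, 10.26 and 10.67 after Nutlin-3, and 10.04 and 10.31 after 5FU. Nutlin-3 and 5FU arrays overlapped, and all were above the controls. Its pooled rise was 1.71 ± 0.16 (3.28-fold, adjusted p = 0.0143), and 22 of 25 probe sets had every drug array above both controls. TP53INP1, a stress protein that promotes p53 phosphorylation and autophagy, rose 4.42-fold (adjusted p = 0.00968). ZMAT3, an RNA-binding zinc finger protein, rose 2.48-fold, and PPM1D, the phosphatase that takes phosphates off p53 and checkpoint kinases, 2.06-fold.

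Of 24 measured p53 targets of redox control and metabolism, 9 rose, with a median of 0.77. TP53I3 (PIG3), a quinone oxidoreductase, had the largest rise of all 88. It was at 7.23 and 7.22 in the controls, 9.99 and 10.05 after Nutlin-3 and 9.54 and 9.45 after 5FU, a difference of 2.53 ± 0.11 (5.79-fold, adjusted p = 0.000617). ABCA12 was at 4.58 and 4.61 in the controls, 6.44 and 6.92 after Nutlin-3 and 5.65 and 5.76 after 5FU. Its controls were below the filter of 4.73, so it passed that filter through the drug arrays, and no fold is given. ABHD4, a lipase of N-acyl phospholipids, rose 2.28-fold, and FDXR, a mitochondrial ferredoxin reductase, 2.04-fold. DDIT4, a brake on mTORC1, was at 7.42 and 7.43 in the controls, 8.87 and 9.22 after Nutlin-3, and 7.86 and 8.03 after 5FU. It is the rising gene that was called higher after Nutlin-3 than after 5FU, as given under the comparison of the drugs.

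Of 14 measured p53 targets of repair and nucleotide supply, 3 rose (median 0.51, or 0.27 without control replicate 2), and these were APOBEC3C, a cytidine deaminase (2.28-fold), RRM2B, the p53-dependent subunit of ribonucleotide reductase (2.17-fold), and DDB2, which recognizes UV damage (1.98-fold). APOBEC3C was at 7.83 and 7.99, then 9.01 and 9.16, then 9.04 and 9.17 in controls, Nutlin-3 and 5FU, so the drug groups overlapped almost wholly. TYMS, the enzyme that 5FU inhibits, was not called (-0.10 ± 0.14, adjusted p = 0.965), and its arrays ranged from 10.02 to 10.59 without separating drugs from controls.

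Of 21 measured secreted and surface p53 targets, 7 rose (median 0.57). SERPINB5 (maspin), a serpin of epithelial cells, was at 6.36 and 6.14 in the controls, 8.24 and 8.84 after Nutlin-3 and 8.55 and 9.03 after 5FU. The drugs overlapped each other well above the controls, and the rise was 2.41 ± 0.21 (5.33-fold, adjusted p = 0.0131). TLR3, the endosomal sensor of double-stranded RNA, rose 3.72-fold. Its 5FU arrays (7.26 and 7.62) were above its Nutlin-3 arrays (6.70 and 7.12), though the direct limma test between drugs was not passed (adjusted p = 0.385). SULF2, which trims sulfates from heparan sulfate, rose 3.03-fold.

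Of the 39 measured p53 targets of signalling, trafficking and other roles, 11 rose (median 0.58). GALNT5, which starts O-linked glycans, was at 8.36 and 7.84 in the controls, 9.68 and 9.77 after Nutlin-3 and 9.79 and 9.95 after 5FU, a 3.25-fold rise. DNAI3, a dynein intermediate chain of cilia, was at 4.46 and 4.31 in the controls, 6.14 and 6.63 after Nutlin-3 and 6.12 and 6.49 after 5FU. It was 1 of 3 rising genes whose control mean was below the filter of 4.73 and which passed it through the drug arrays, the others being ABCA12 and LSMEM1. The size of its change is therefore uncertain, with a log2 difference of 1.97 here and 2.79 over probe sets above the upper quartile. DNAI3, GALNT5 and HSD17B7 were placed in the lists because earlier results of these data showed them, and add nothing to the counts as evidence. ANKRA2, an ankyrin repeat protein, rose 2.96-fold. DGKA, which turns diacylglycerol into phosphatidic acid, rose 2.26-fold.

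**Figure D2:**
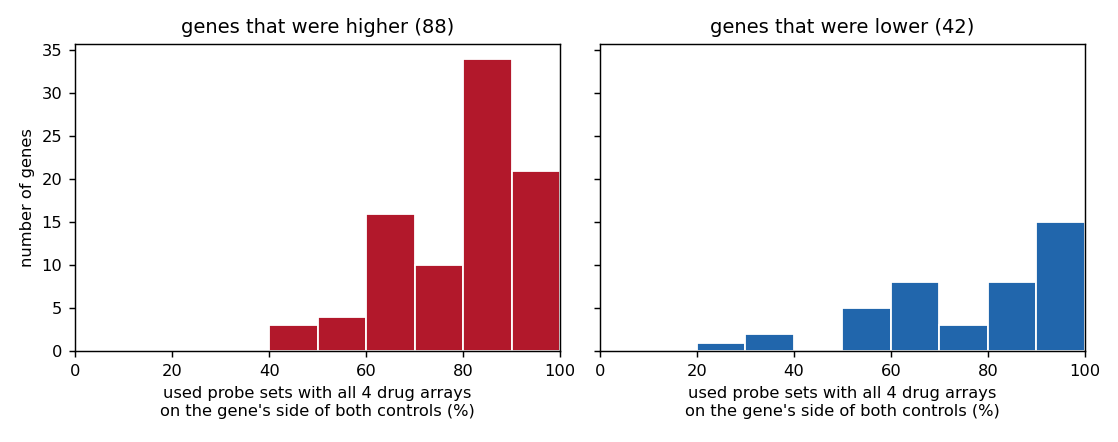
Description, not a test, since the rule chose the genes by the mean of these probe sets: histograms of the number of genes (y axis) by the percent of a gene's probe sets that have all 4 drug arrays on the gene's side of both controls (x axis), for the 88 rises (left) and 42 falls (right). The median was 83.0% among rising and 80.0% among falling genes.

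A gene's value averages its probe sets, and the rule chose genes by that average, so high shares of probe sets on the same side are built into the choice and are given as a description. Among the 88 rising genes, 85 had at least 50% of their probe sets with every drug array above both controls, and 7 had every probe set so. AHNAK2, a giant scaffold protein, had 78 of 83, CYFIP2, a WAVE complex subunit, 39 of 44, and DGKA 37 of 45. Among the 42 falling genes, 39 had at least 50% of their probe sets below, and 10 had every one. BUB1B had 29 of 29 and CKAP5, a microtubule polymerase, 44 of 47. Probe sets of one gene share the same RNA and are not replicates.

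Of the 88 rising genes, 37 were in no list (those named here were picked after their values were seen). They included LAMP3, a lysosomal membrane protein (2.20-fold), and the epithelial genes LAMA3, a laminin chain (2.13-fold), and KRT15, a keratin (1.99-fold). They also included AKR1B10, an aldo-keto reductase. It was at 4.79 and 4.69 in the controls, 5.72 and 6.12 after Nutlin-3 and 6.34 and 6.67 after 5FU. Its controls lay around the filter of 4.73, so the size of its rise is uncertain and no fold is given. The transcription factors STAT4 and STAT3 rose 2.19-fold and 1.86-fold, and PRDM1, a transcriptional repressor that drives terminal differentiation, 1.93-fold. HBEGF, a ligand of the EGF receptor, rose 1.96-fold, and SLC2A1, the glucose transporter GLUT1, 1.65-fold. Lists of other stress responses gave at most 1 member each, against 0.493% of all genes tested that rose in common. In the NF-kappaB list 1 of 28 rose (BIRC3, an inhibitor of apoptosis, 2.14-fold), and among interferon-stimulated genes 1 of 38 (TAP1, the peptide transporter of antigen presentation, 2.33-fold). BIRC3 rose 1.46-fold after Nutlin-3 and 3.14-fold after 5FU. Its drug arrays did not overlap, though the direct limma test between drugs was not passed (adjusted p = 0.0685). The integrated stress and unfolded protein list gave 1 of 27 (SESN2) and the cholesterol list 1 of 29 (HSD17B7, 2.27-fold). Both genes are also counted among the p53 targets. HSD17B7 went against its list, in which 23 of 29 had a negative pooled change (median -0.17) and 7 had all 4 drug arrays below both controls. In the NF-kappaB, interferon, stress and cholesterol lists, 7, 6, 7 and 8 members had an unadjusted limma p below 0.05, in either direction. None of the 26 immediate early genes (median -0.01), the 43 ribosome biogenesis genes (-0.16) or the 44 ribosomal protein genes (0.05) was called by limma, and 4, 6 and 0 of them had an unadjusted p below 0.05, as did 9.73% of all genes tested.

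Replication-dependent histone genes were the list with the largest share of falls: 12 of 18 measured members fell and 0 rose, with a median of -1.34 (-1.55 after Nutlin-3, -1.27 after 5FU). These genes supply the core and linker histones of new chromatin and are transcribed in S phase. H2BC14, an H2B gene, had the largest fall of all. It was at 11.52 and 11.46 in the controls, 8.14 and 8.07 after Nutlin-3 and 7.97 and 7.87 after 5FU, a difference of -3.47 ± 0.11 (11.1-fold lower, adjusted p = 0.00015). Control and drug arrays were more than 3 log2 units apart, but the gene rests on 2 probe sets. H2AC21 was at 11.12 ± 0.17 (SD, n = 2) in the controls, 9.02 and 8.96 after Nutlin-3 and 9.14 and 9.06 after 5FU (4.21-fold lower, adjusted p = 0.00212). The linker histone H1-4 was 3.45-fold lower, H2BC15 3.39-fold, H2AC6 3.19-fold, H1-2 3.08-fold and H2AC20 2.81-fold lower. Several of these neighbour one another on chromosomes 1 and 6, in the pairs H2BC21 and H2AC20, H2AC20 and H2AC21, H2AC6 and H1-4, H2BC13 and H2BC14, and H2BC15 and H2AC17. Because histone genes are near-identical in sequence, their values are uncertain as separate genes, and the 12 are not 12 independent measurements. Over probe sets with a mean above the upper quartile (6.45), the list's median was -2.08.

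Of 17 measured kinases, cyclins and other genes of mitotic entry, 4 fell (median -0.84), and they were PLK1, AURKA, BORA and GTSE1. PLK1, the polo-like kinase of mitotic entry and spindle assembly, was at 9.54 and 9.62 in the controls, 8.07 and 8.34 after Nutlin-3 and 8.09 and 8.24 after 5FU. Drug arrays overlapped each other and were below both controls, with a difference of -1.40 ± 0.13 (2.63-fold lower, adjusted p = 0.0143). AURKA, the Aurora kinase of the centrosome, was 2.86-fold lower and BORA, the cofactor by which it activates PLK1, 2.27-fold lower. The list as a whole differed more by drug, with a median of -1.30 after Nutlin-3 and -0.43 after 5FU.

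Of 28 measured genes of the kinetochore, spindle checkpoint and anaphase, 5 fell (median -0.88). BUB1B, the checkpoint kinase-like protein that inhibits the anaphase-promoting complex, was at 8.77 and 8.46 in the controls, 6.23 and 6.88 after Nutlin-3 and 6.80 and 7.47 after 5FU. The replicates of each drug stood apart and the drugs overlapped, and the difference of -1.77 ± 0.25 (3.41-fold lower) had an adjusted p of 0.0373. CDC20, the activator of that complex, was 2.06-fold lower, from 10.29 and 10.08 to between 9.06 and 9.26. SPC24, a subunit of the NDC80 complex, was 1.94-fold lower. The others were CENPA, the centromeric histone variant, and ESPL1, separase, which cuts cohesin.

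Of 34 measured kinesins and genes of the spindle and cytokinesis, 7 fell (median -0.97, with -1.47 after Nutlin-3 and -0.44 after 5FU). DLGAP5, which stabilizes spindle microtubules, was 2.66-fold lower, KIF4A, a chromosome-bound kinesin, 2.35-fold and PRC1, which bundles the central spindle, 2.31-fold lower. KIF4A was at 9.11 and 8.96 in the controls, 7.25 and 7.45 after Nutlin-3 and 8.03 and 8.49 after 5FU. Its 5FU arrays lay between the other groups, though the direct limma test between drugs was not passed (adjusted p = 0.101). NCAPH of condensin and the kinesins KIF2C, KIF23 and KIFC1 made up the rest.

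Of 53 measured genes of DNA replication and the G1/S transition, 2 fell in common, against 0.235% of all genes tested. They were UHRF1, which maintains DNA methylation (-1.64 after Nutlin-3 and -0.39 after 5FU), and CHAF1A, a subunit of chromatin assembly factor 1 (-1.34 and -0.31). All 4 drug arrays were below both controls in 12 of the 53, against 7.02% of all genes. In the pooled limma test, 40 of the 53 had an unadjusted p below 0.05, and the list's pooled median was -0.59. The list's median was -1.25 after Nutlin-3 and 0.02 after 5FU. Of 39 genes of damage signalling and homologous recombination none was in the common response by limma (21 had an unadjusted p below 0.05, against 9.73% of all genes), with medians of -1.09 and 0.06. The direct test between drugs called 27 of the 53 and 9 of the 39, against 0.633% of all genes. Nutlin-3 and 5FU share their controls here, so their separate values are given side by side and not as independent support.

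**Figure D3:**
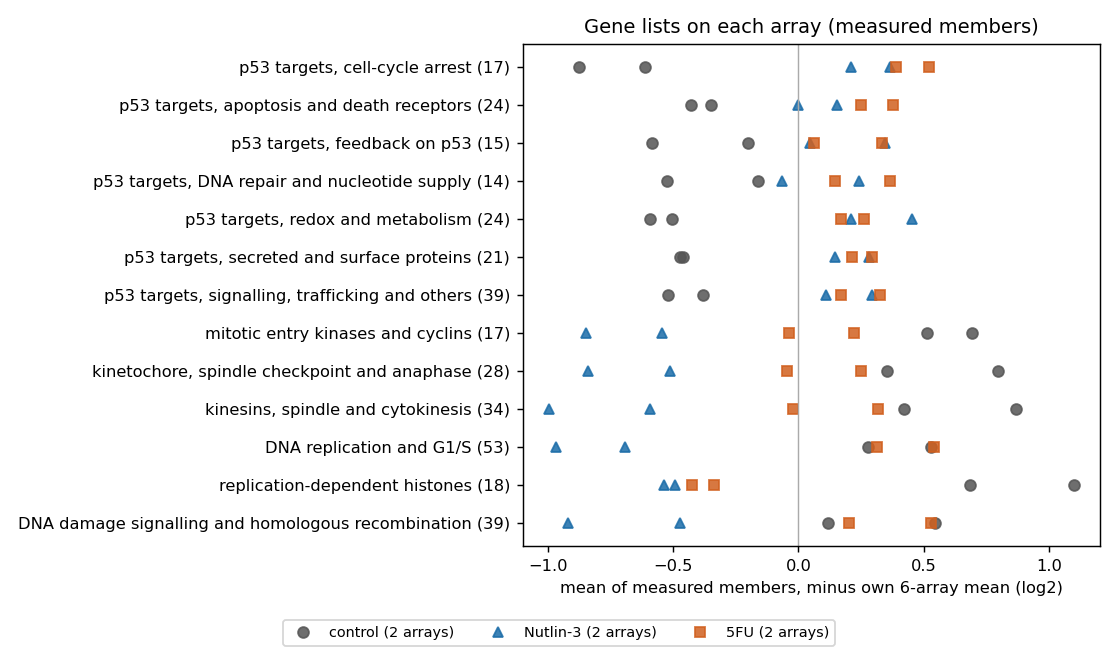
Mean of the measured members of 13 gene lists on each array, minus the list's own mean over the 6 arrays (x axis, log2), with circles for controls, triangles for Nutlin-3 and squares for 5FU. In the p53 target lists all 4 drug arrays are above both controls and in the histone list all 4 are below (controls 1.10 and 0.69, drugs from -0.53 to -0.34), whereas in the replication list the 5FU arrays (0.31 and 0.54) stand with the controls (0.53 and 0.28).

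Among the 12 falling genes outside the lists (those named were picked after their values were seen or named by size), GAS2L3, a linker of actin and microtubules in cytokinesis, was 2.82-fold lower, CDKN3, a phosphatase of cyclin-dependent kinases, 2.76-fold, and ARHGAP11A 2.72-fold lower. Others were NEK2, a centrosomal kinase (1.88-fold), CCNF, a cyclin that acts in a ubiquitin ligase (2.00-fold), and CKAP5 (1.98-fold). PER2, a circadian repressor, was 1.75-fold lower and PDE9A, a cyclic GMP phosphodiesterase, 1.79-fold lower. ARHGAP11B is a partial copy of ARHGAP11A, so their probe sets may share signal.

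The drugs were also set directly against each other within the common response. Of the 88 rising genes, 40 were higher after Nutlin-3 than after 5FU and 48 the reverse, and 2 (2.27%) passed the test. Of the 42 falling genes, 33 were lower after Nutlin-3, and 10 (23.8%) passed, against 0.633% of all genes tested. The pooled test and this one use the same variance estimate for a gene, so the share called among common genes is not independent of how they were chosen. Median differences in size were 0.28 log2 units among rises and 0.51 among falls, against 0.17 over all genes. The arrays of one drug did not overlap those of the other in 62 of the 88 rises and 33 of the 42 falls, and in 46.0% of all genes. A 95% interval of the difference inside 2-fold in both directions was found for 74 of 88 rises and 22 of 42 falls, and for the rest a larger difference is not excluded by these arrays.

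DDIT4 was higher after Nutlin-3 by 1.10 (95% interval 0.72 to 1.48, adjusted p = 0.0442). HBEGF was at 7.17 and 7.03 in the controls, 7.59 and 7.58 after Nutlin-3 and 8.48 and 8.62 after 5FU, so it was the called rise with more after 5FU (difference -0.96, adjusted p = 0.0417). KIF2C, a kinesin that takes microtubules apart, was at 8.97 and 8.48 in the controls, 6.80 and 6.83 after Nutlin-3 and 8.22 and 8.40 after 5FU. Its 5FU arrays were just below the lower control, and the drugs differed by -1.49 (adjusted p = 0.031). EME1, a subunit of a structure-specific nuclease, had a change of -1.49 after Nutlin-3 and -0.19 after 5FU. KIFC1, KIF23, UHRF1, NCAPH, ARHGAP11B, CCNF and CHAF1A were the other falls called lower after Nutlin-3. PDE9A was the one called lower after 5FU, at 5.95 and 6.05 against 7.06 and 7.37 after Nutlin-3 and 7.47 and 7.42 in the controls.

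At the other end, some genes had near-equal values after both drugs. TAP1 was at 8.01 and 7.66 in the controls, 9.03 and 9.10 after Nutlin-3 and 9.01 and 9.11 after 5FU, a difference between drugs of 0.00 (95% interval -0.37 to 0.38). KRT15 also differed by 0.00 (-0.32 to 0.33), DGKA by 0.01 (-0.33 to 0.34) and APOBEC3C by -0.02 (-0.35 to 0.31). NDRG1, a stress-responsive protein, differed by 0.02, and the histone H1-2 by -0.02 (-0.45 to 0.41). These intervals leave room for differences on either side of 0, so the drugs were not shown to act alike on them.

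**Figure D4:**
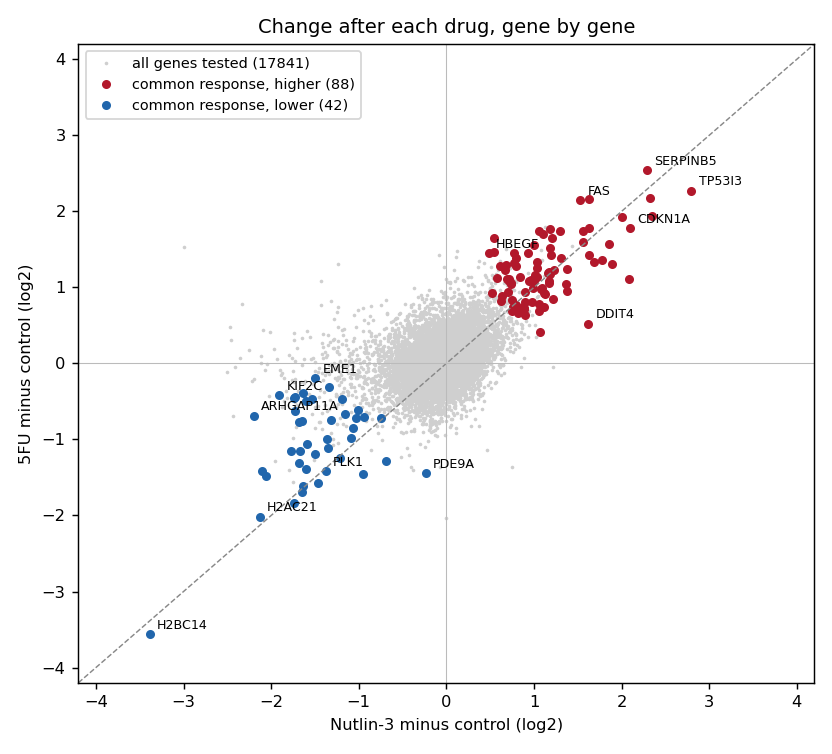
Change after Nutlin-3 (x axis) against change after 5FU (y axis), both minus control on the log2 scale, for the genes of the common response over all genes tested; the drugs share the 2 controls, so the axes are not independent. Rising genes lie around equal change (medians 1.04 and 1.15), and falling genes lie mostly toward larger falls after Nutlin-3 (medians -1.57 and -0.99).

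Tested one drug at a time, 31 of the 88 rises were called with each drug, 27 with Nutlin-3 alone, 23 with 5FU alone and 7 with neither. Of the 42 falls, 10 were called with both, 28 with Nutlin-3 alone, 3 with 5FU alone and 1 with neither. Over all genes tested, 1.22% were called with Nutlin-3, 0.448% with 5FU and 0.23% with each of them in the same direction. A call in one drug and not in the other does not show that the drugs differ. At the threshold, PDE9A (adjusted p = 0.0482) and NADSYN1 (0.0487), which makes NAD, were just inside, and IKBIP (1.23, 0.0517) and RACGAP1 (-0.99, 0.0517), a centralspindlin subunit, just outside, although all 4 drug arrays of both lay on one side. For any single gene taken alone, an exact permutation test of 4 arrays against 2, made two-sided by doubling the smaller tail, cannot go below 0.133. The calls thus rest on the variance shared across genes.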

How the data were processed

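The deposited values are log2 expression per probe set, and the submitters' processing notes name RMA, a method that subtracts background, brings arrays to a common distribution and combines probes; no version or setting was given in the sources used here, nor any slide or scan day. Of 1411399 probe sets, 357604 had 1 gene symbol in the platform annotation, 15322 several and 1038473 none. Of 19560 symbols, 16472 were current in RefSeq, 2966 were renamed by a unique synonym and 122 stayed as annotated. A gene's value was the mean of its single-symbol probe sets whose mean exceeded 4.73 log2 units (the median of all), with at least 2 required, which gave 17841 genes. The median gene's 12 probe sets and the 6 arrays set the precision. limma 3.58.1 in R 4.3.3 fitted 3 groups with no block and 3 residual degrees of freedom, and p-values were adjusted by Benjamini-Hochberg. Tested on simulated data, the pooled comparison found 52.7% of 200 genes changed 2-fold, with 3.13% of calls false, and 91.4% of 200 changed 4-fold. The simulated noise was independent for each gene and array, and each change was equal in both drugs. Replicate differences of the real arrays were correlated, so these shares do not carry over to them. Replicate numbers were not used to pair the samples in the fit of 3 groups, so variation shared between groups was not modelled. RNA extraction is given as PicoPure in the labels and as RNeasy in the design text.

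Members and lists were chosen with earlier results of these data known. Genes were named by size of change (the 12 largest rises and falls with at least 3 probe sets), as up to 3 members of each list, by the 6 smallest and 6 largest differences between drugs, at the threshold, and MDM2, CDKN1A and TYMS regardless; all others were picked after their values were seen. Lists are described by counts and medians, with no set test. Alternatives were leaving out each array, a replicate block, the drugs as 1 group or tested separately, other scalings, other probe-set filters and summaries, and trended robust variances.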

Additional observations from a re-analysis of the deposited data

Results flagged for a closer look

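Within the common response, 12 genes differed between the drugs by the direct limma test of Nutlin-3 against 5FU, and are listed for that reason. Differences are Nutlin-3 minus 5FU in log2 units. Lower after Nutlin-3 were the kinesins KIF2C (-1.49, adjusted p = 0.031), KIFC1 (-1.29, 0.0435) and KIF23 (-1.28, 0.0468), the condensin subunit NCAPH (-1.11, 0.0468), and the nuclease subunit EME1 (-1.30, 0.0206). The chromatin genes UHRF1 (-1.25, 0.0191) and CHAF1A (-1.03, 0.0317), with CCNF (-1.07, 0.031) and ARHGAP11B (-1.10, 0.0442), went the same way. HBEGF rose less after Nutlin-3 (-0.96, adjusted p = 0.0417). DDIT4 rose more after Nutlin-3 (1.10, adjusted p = 0.0442), and PDE9A fell more after 5FU (1.21, adjusted p = 0.031). Leaving out any 1 array left 0 to 2 such calls, and what sets these genes apart was not tested.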

How the results depend on the processing

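The main values were 134 genes called, 130 in the common response, 88 higher, 42 lower and 12 of the 130 called between the drugs. Leaving out 1 array gave 7 to 67 called, 7 to 64 in common, 3 to 41 higher, 2 to 28 lower and 0 to 2 between drugs. A fit with the replicate number as a block gave 5, 5, 3, 2 and 0; the 5 were the genes also called without any 1 array. Replicate differences correlated at -0.565 and -0.525 between control and each drug and at 0.634 between the drugs. Replicate differences thus went the same way in the 2 drugs and the opposite way in the controls, so the replicate numbers do not pair the samples across the groups. The block takes the same shift in every group and so does not model this pattern. The fit without a block leaves it out too, and its p-values assume independent arrays. The 4 drug arrays as 1 group gave 53, 53, 40 and 13, where the spread between drugs enters the error. Each drug called separately gave 41, 41, 31 and 10. Centring arrays gave 257, 230, 132 (57.4% of the common genes), 98 and 41, quantile normalization 364, 328, 195 (59.5%), 133 and 61, and probe sets above the upper quartile 252, 224, 129 (57.6%), 95 and 30. The median of probe sets gave 59, 58, 38, 20 and 3, and all probe sets of a gene left 4 between drugs. For the other counts the cause of the shift was not tested. Of the 130 genes, 130 were kept under centring and under quantile normalization, 52 with probe-set medians and 121 with trended robust variances. Across 59 named genes, no direction reversed among those called, 333 of 881 values lost the call and 9 gained it. The p53 target lists kept a median above 0 and the mitotic and histone lists one below 0 in every setting, with feedback on p53 from 0.21 to 0.61 and repair from 0.27 to 0.61, whereas the median of ribosome biogenesis ranged from -0.34 to 0.05. With 2 arrays a group, 52.7% of simulated 2-fold changes were recovered under independent noise. How many real changes were missed was not tested, and a gene that was not called is not shown to be unchanged.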
